A study of Mus musculus with 4 samples.

Results

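The genes described here are 10 S100 genes of the cluster on mouse chromosome 3, among them S100a14, the gene deleted in the study. They were chosen by symbol from the 14157 genes of the table, and all 10 had a row and passed the filter on low values. S100 proteins are small calcium sensors. Most form dimers, bind calcium through a pair of EF-hand loops and then dock onto partner proteins such as annexins, and several are also secreted and act on cell-surface receptors. Squamous epithelium, the lining of the mouse esophagus, makes several of them in abundance, and their genes lie in and beside the epidermal differentiation complex, where genes of the cornified cell envelope are grouped.

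The libraries came from total RNA of 4 tumours of the esophagus, raised in C57BL/6 mice by 4NQO, a DNA-damaging carcinogen that the KO and WT mice alike received. The KO group holds 2 tumours from mice whose genotype is labelled S100A14 CKO (replicates 1 and 8), and the WT group holds 2 tumours from wild-type mice (replicates 3 and 6). The promoter or Cre line behind the deletion, the cells in which it acts, the carcinogen dose and the age of the mice are not stated in the labels. The labels do not say that each tumour came from a separate animal, so the p-values below measure the spread between these samples, which may be technical.

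Values are read counts that the authors scaled per library, and 1 read was worth 0.220 and 0.258 in KO replicates 1 and 8, against 0.193 and 0.318 in WT replicates 3 and 6. The libraries held 11132025 to 16182106 reads, of which 1052423 to 2107060 fell in nuclear protein-coding genes and 47.0% to 76.4% in ribosomal RNA. KO replicate 8 stood apart, with Pearson correlations of 0.769 to 0.816 across genes with the other libraries, against 0.908 to 0.915 among the other 3. Krt5 and Krt14, the keratins of basal squamous cells, were abundant in all 4 libraries, with at least 4102 reads each. Krt4 and Krt13, the keratins of differentiated esophageal epithelium, had at least 124 reads in each library; Krt5 and Krt13 were picked as tissue markers after their values were seen.

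The cluster runs, in RefSeq gene order on GRCm38.p6, from S100a1 through S100a13, S100a14 and S100a16 to S100a4, S100a6, S100a8 and S100a9. S100a13 and S100a16 are the coding genes directly on either side of S100a14, and S100a1 is the second coding gene on the S100a13 side. S100a11 and S100a10 lie on the far side of the epidermal differentiation complex, 66 and 67 coding genes from S100a14. S100a1 and S100a13 point away from each other. Between the starts that the RefSeq promoter table gives for these genes lie 104 bases (chr3:90514331-90514434, plus strand), shown because both genes share this stretch while their values leaned in opposite directions in the KO tumours. The 250 bases before the first RefSeq start of S100a16 (chr3:90537004-90537253, plus strand) and of S100a4 (chr3:90603520-90603769, plus strand) are shown because these genes, like S100a1 and S100a13, had KO and WT values that did not overlap. The sequences are from RefSeq, build GRCm38.p6, while the counts were made on mm9. Capitals mark TATAAA, and nothing is in capitals where neither TATAAA nor the AP-1 motif TGANTCA was found on either strand.
S100a1-S100a13 gap: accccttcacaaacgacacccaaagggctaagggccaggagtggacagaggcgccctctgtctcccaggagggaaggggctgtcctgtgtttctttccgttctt
S100a16 upstream: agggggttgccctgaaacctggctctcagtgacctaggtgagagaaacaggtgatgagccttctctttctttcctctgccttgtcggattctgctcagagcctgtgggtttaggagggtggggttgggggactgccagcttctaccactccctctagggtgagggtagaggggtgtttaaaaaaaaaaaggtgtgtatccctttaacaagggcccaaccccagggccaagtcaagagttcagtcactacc
S100a4 upstream: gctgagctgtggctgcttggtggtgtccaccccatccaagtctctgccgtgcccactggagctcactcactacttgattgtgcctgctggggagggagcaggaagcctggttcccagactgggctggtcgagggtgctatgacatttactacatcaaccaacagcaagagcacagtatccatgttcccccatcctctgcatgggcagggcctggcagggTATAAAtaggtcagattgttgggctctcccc

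Of the 10 members, 8 matched a promoter in the RefSeq table, with 9 starts among them, and S100a14 and S100a10 did not. TATAAA was found before S100a4, beginning 31 bases upstream of its start, and before S100a8, beginning 30 bases upstream. Of all 32851 promoters in that table, 12.4% hold TATAAA on either strand in the same 250 bases, and 6.75% hold the AP-1 motif. This AP-1 motif reads the same on both strands, and there were 2 matches before S100a11 and 1 before the second start of S100a16, at 192 bases upstream. In the 104-base stretch neither motif was found, and 5.69% and 2.87% of all promoters hold them in the 104 bases before the start. A match is a string of letters and was not tested for binding.

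The comparison asked whether the loss of S100a14 came with changes in the S100 genes beside it or farther along the cluster. S100a14 (ENSMUSG00000042306), an epithelial S100 protein, was all but absent from the KO tumours: it had 0 and 1 reads in KO replicates 1 and 8, against 463 and 347 in WT replicates 3 and 6. In scaled values this was 0 and 0.258 in KO tumours and 89.4 and 110 in WT tumours, and 3 reads, the limit that a count of 0 allows, equal 0.660 in KO replicate 1. The fitted log2 fold change of S100a14, on log2(value + 1), was −6.48 (SE 0.46) with a limma adjusted p of 0.0211; it depends on the pseudocount, since 1 KO library was at 0. It was the 1 member to pass the adjusted threshold of 0.05, against 0.00813% of all 12304 genes tested called lower and 0% called higher. On the recovered reads it was again the 1 member called by edgeR's exact test, which called 0.136% of genes higher and 0.31% lower, and by DESeq2, which called 0.163% higher and 0.262% lower. edgeR's quasi-likelihood test called 0 members and 0% of genes in either direction. Its call was lost without WT replicate 3 (adjusted p = 0.505) and without WT replicate 6 (adjusted p = 0.361), with a log2 fold change of −6.63 and −6.33 in those limma fits. Per the authors' deposited table, the deleted gene had a log2 fold change of −9.38 and an adjusted p of 1.4e-15, and the next smallest adjusted p among the members was 0.720, for S100a4.

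Over the 4 libraries, the profile closest to that of S100a14 was that of Krt42, a type I keratin gene, with 0.880 and 1.03 in KO tumours and 63.3 and 114 in WT tumours. Likeness was the Euclidean distance between log2(value + 1) profiles centred on their means, which was 1.10 for Krt42. The next were Gm26232 and Gm24830, which had identical values in every library and a distance of 2.24. Their values were 0 and 0.773 in KO tumours and 25.9 and 24.1 in WT tumours. Such a ranking picks genes for being low in KO and high in WT tumours. Neither Krt42 nor these genes passed limma's threshold, where S100a14 was the 1 gene called.

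None of the 3 near neighbours passed limma's threshold, and their differences did not share a direction. S100a16 was lower and S100a13 slightly lower in both KO tumours, while S100a1 was higher in both. S100a16 (ENSMUSG00000074457), an EF-hand protein found in many tissues, had 51.7 and 39.7 in KO replicates 1 and 8 and 72.4 and 74.7 in WT replicates 3 and 6. These values rest on 235 and 154 reads in KO replicates 1 and 8 and 375 and 235 reads in WT replicates 3 and 6. Both KO tumours lay below both WT tumours, and KO replicate 8 was the lowest. S100a16 averaged 45.7 ± 8.48 in KO tumours and 73.5 ± 1.61 in WT tumours (SD, n = 2 each), with a log2 fold change of −0.69 (SE 0.41, 95% interval −1.65 to 0.28, limma adjusted p = 0.934). Without KO replicate 8 the log2 fold change was −0.50, and without KO replicate 1 it was −0.87.

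S100a13 (ENSMUSG00000042312), which takes part in the release of fibroblast growth factor FGF1 from cells, had 5.06 and 4.38 in KO tumours and 5.98 and 5.40 in WT tumours. The reads behind these values were 23 and 17 in KO replicates 1 and 8 and 31 and 17 in WT replicates 3 and 6. The KO values were both below the WT values, but the smallest gap, between KO replicate 1 and WT replicate 6, was −0.08 on the log2(value + 1) scale. The log2 fold change of S100a13 was −0.23 (SE 0.48, 95% interval −1.35 to 0.90, limma adjusted p = 0.998).

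S100a1 (ENSMUSG00000044080), a calcium regulator of striated muscle, had 4.18 and 4.12 in KO tumours and 2.32 and 2.22 in WT tumours. Within each genotype the values nearly coincided, and the KO tumours lay above the WT tumours. They came from few reads, 19 and 16 in KO replicates 1 and 8 and 12 and 7 in WT replicates 3 and 6. The exact 95% Poisson intervals of these counts, 11.4 to 29.7 and 9.15 to 26.0 in KO and 6.20 to 21.0 and 2.81 to 14.4 in WT, overlap and cover counting error only. The log2 fold change of S100a1 was 0.66 (SE 0.50, 95% interval −0.51 to 1.82, limma adjusted p = 0.954).

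Skeletal muscle markers also differed between the libraries. Of 8 muscle markers, 7 had a row in the table used, and their summed value was 22.0 and 387 in KO replicates 1 and 8 and 5.79 and 23.2 in WT replicates 3 and 6. Tnnt3, a fast troponin T gene, was at 0 in WT replicate 6. The muscle sum of KO replicate 8 was far above that of KO replicate 1, while S100a1 was nearly equal in both. All 6 muscle markers that could be tested had positive log2 fold changes, 5 of them without overlap, and 0 passed. Of all genes tested, 47.5% had a positive log2 fold change and 14.5% lay above WT without overlap. The part of muscle RNA in the S100a1 difference was not tested. In tumour RNA of this kind, fewer cells of a type and less RNA per cell cannot be told apart. The full RefSeq spans of S100a1 and S100a13 overlap, although the starts given in the promoter table do not, and their GENCODE exons do not. Whether strand was kept in the libraries is not given, so reads in such an overlap could count for either gene.

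**Figure D1:**
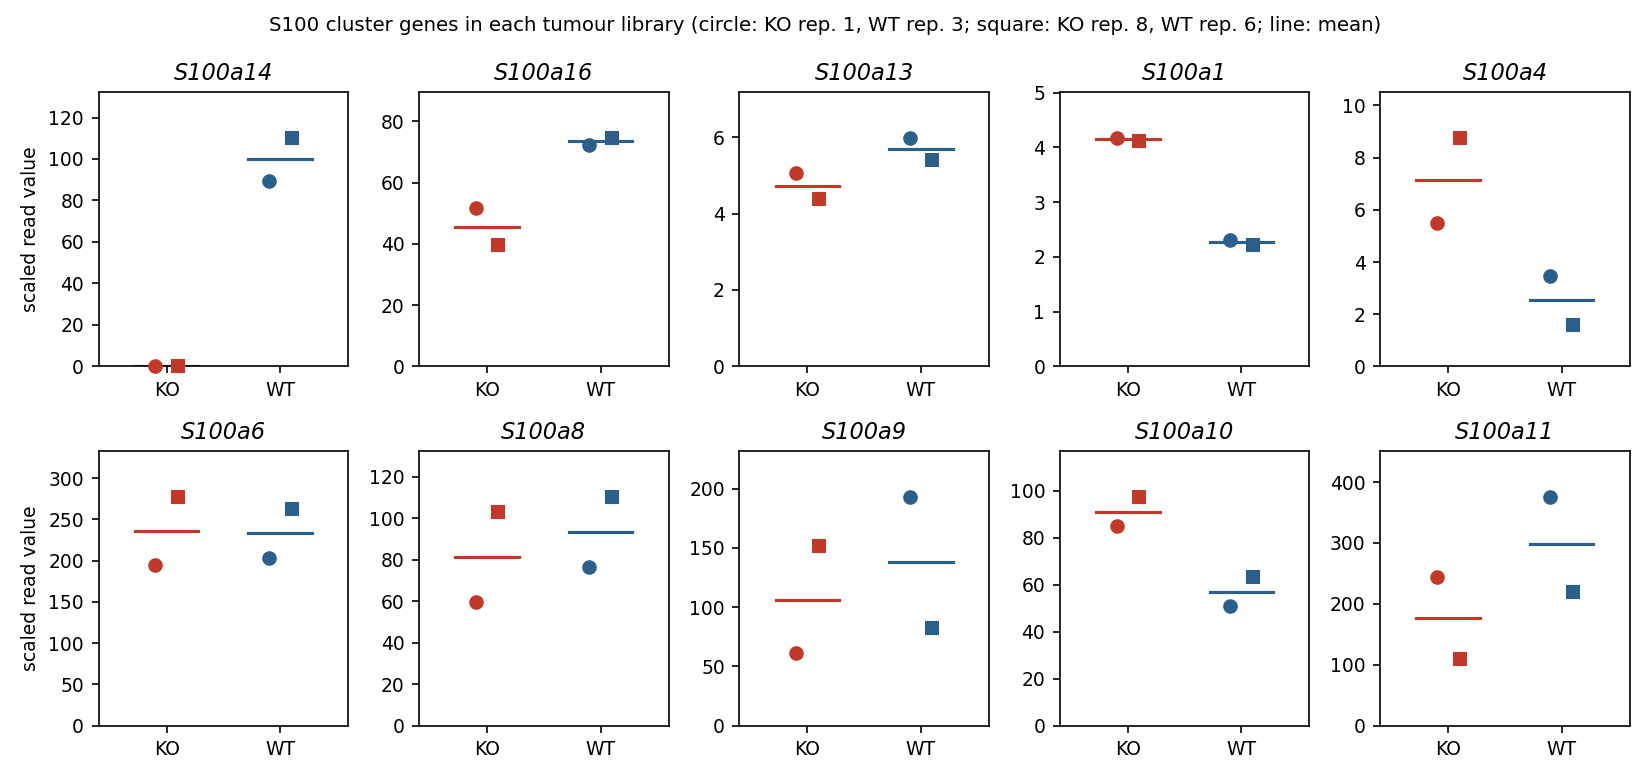
Scaled read value of each S100 cluster gene (y axis, from 0, its own scale per panel) in the KO and WT tumours (x axis), with 1 point per library and a line at the mean of 2. S100a14 sits at 0 and 0.258 in KO tumours against 89.4 and 110 in WT tumours, and S100a16, S100a13, S100a1, S100a4 and S100a10 also have no overlap between KO and WT, whereas S100a6, S100a8, S100a9 and S100a11 overlap.

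Of the 9 members other than S100a14, 4 had a positive log2 fold change, against 47.5% of all genes tested, and 5 a negative one, against 52.5%. In 5 of the 9 (55.6%) the KO and WT values did not overlap, against 33.7% of all genes tested. S100a1, S100a4 and S100a10 were above WT in both KO tumours, against 14.5% of all genes, and S100a16 and S100a13 were below, against 19.3%. All 3 near neighbours were in this set, as were 2 of the 6 distant genes. The median log2 fold change was −0.23 over the 9 members, −0.23 over the near neighbours, −0.11 over the distant genes and −0.03 over all genes tested. The median size of the fold change, regardless of sign, was 0.66 for the 9 members and 0.38 for all genes tested. None of the 9 had an unadjusted p under 0.05 in limma, where 1.63% of all genes were higher and 3.62% lower at that level.

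Genes without an S100 product on the S100a1 side of the cluster were measured in the same way. Of 10 such genes on the list, 9 had a row, and 0 passed limma's threshold. Of these 9, 3 had a positive and 6 a negative log2 fold change, with a median of −0.14. Chtop, which encodes a chromatin and mRNA export protein and is the coding gene next to S100a1, had 35.2 and 33.2 in KO tumours and 34.9 and 36.9 in WT tumours. Its KO and WT values overlapped, with a log2 fold change of −0.07 (95% interval −1.02 to 0.89). Ilf2, a subunit of a nuclear RNA-binding complex, had 32.3 and 20.4 in KO tumours and 26.8 and 29.9 in WT tumours, and Snapin, a SNARE-associated protein, had 7.92 and 10.1 in KO tumours and 5.40 and 8.58 in WT tumours. Both overlapped. Gatad2b, a subunit of the NuRD complex, was the 1 gene of the 9 without overlap, against 33.7% of all genes tested. It had 54.3 and 47.7 in KO tumours and 67.6 and 62.3 in WT tumours (log2 fold change −0.34). The remaining genes, Ints3, Slc27a3, Dennd4b, Slc39a1 and Crtc2, overlapped and had log2 fold changes from −0.59 to 0.60.

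**Figure D2:**
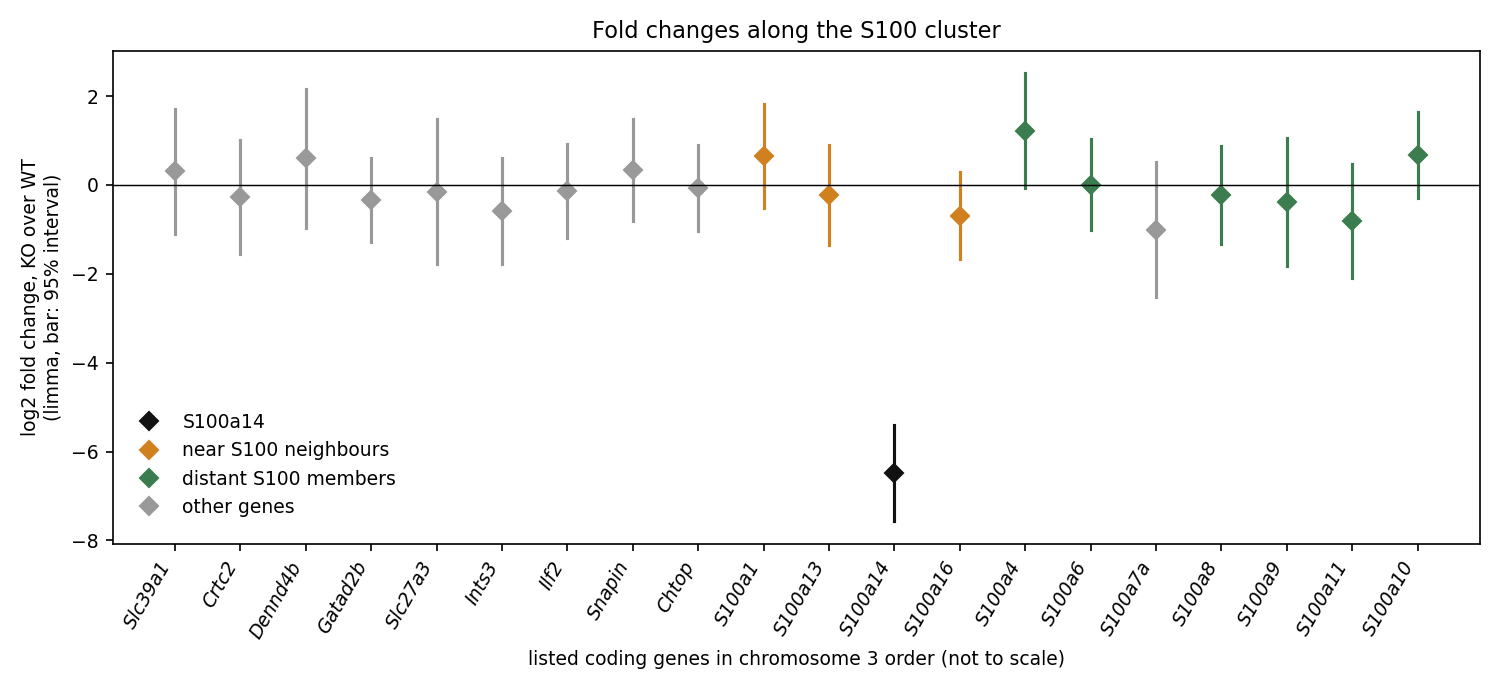
Log2 fold change of KO over WT on the log2(value + 1) scale (diamonds, y axis) with the 95% interval of limma (bars) for the listed genes in chromosome order (x axis, not to scale). S100a14 lies at −6.48, and the interval of each other gene plotted crosses 0, with S100a4 the highest at 1.23.

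S100a4 (ENSMUSG00000001020) is a distant member whose product, made by fibroblasts, macrophages and T cells, binds myosin. It had 5.50 and 8.76 in KO replicates 1 and 8 and 3.47 and 1.59 in WT replicates 3 and 6. The reads were 25 and 34 in KO tumours and 18 and 5 in WT tumours. Both KO tumours were above both WT tumours. On the log2(value + 1) scale, the WT values themselves differed by 0.79, and the nearest KO and WT libraries by 0.54. The log2 fold change of S100a4 was 1.23 (SE 0.55, 95% interval −0.06 to 2.52, limma adjusted p = 0.926), with 0.93 without KO replicate 8. In GENCODE its exons overlap those of Gm42674 on the same strand, so its reads could be shared with that gene model.

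Markers of cells that make S100a4 were measured beside it. The summed value of 9 macrophage markers was 91.9 and 198 in KO tumours and 35.7 and 41.3 in WT tumours, with Cd163 at 0 in WT replicate 6. All 9 had positive log2 fold changes, 8 of them without overlap, against 14.5% of all genes tested, and 0 passed. Lyz2, the myeloid lysozyme gene, had 27.0 and 59.3 in KO tumours and 8.88 and 9.85 in WT tumours (log2 fold change 1.99, limma adjusted p = 0.910). The 6 fibroblast markers summed to 97.6 and 850 in KO replicates 1 and 8 and 108 and 239 in WT replicates 3 and 6, and none was at 0. Of these 6, 5 had positive log2 fold changes, 1 of them without overlap, against 14.5% of all genes tested. Of 6 T cell markers 1 had a row, Trac, with 0 and 1.03 in KO tumours and 0 in both WT tumours. The macrophage sum, like S100a4, was higher in both KO tumours, whereas the fibroblast sums overlapped. Their part in the S100a4 difference was not tested.

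S100a10 (ENSMUSG00000041959), which does not need calcium and holds annexin A2 in a complex at the cell membrane, was higher in both KO tumours while the annexin was lower. S100a10 had 84.9 and 97.4 in KO tumours and 50.8 and 63.2 in WT tumours, from 199 to 386 reads per library. Its mean was 91.1 ± 8.85 in KO tumours and 57.0 ± 8.81 in WT tumours (SD, n = 2 each), with a log2 fold change of 0.67 (SE 0.41, 95% interval −0.29 to 1.64, limma adjusted p = 0.934). Anxa2, the gene of annexin A2, had 600 and 320 in KO tumours and 882 and 625 in WT tumours, with a log2 fold change of −0.76 (SE 0.51, limma adjusted p = 0.950). Neither gene passed. The S100a10 value was 0.142 and 0.304 of the Anxa2 value in KO tumours and 0.0576 and 0.101 in WT tumours, uncorrected for length, so this ratio was higher in both KO libraries. Without KO replicate 8 the log2 fold change of S100a10 was 0.57.

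**Figure D3:**
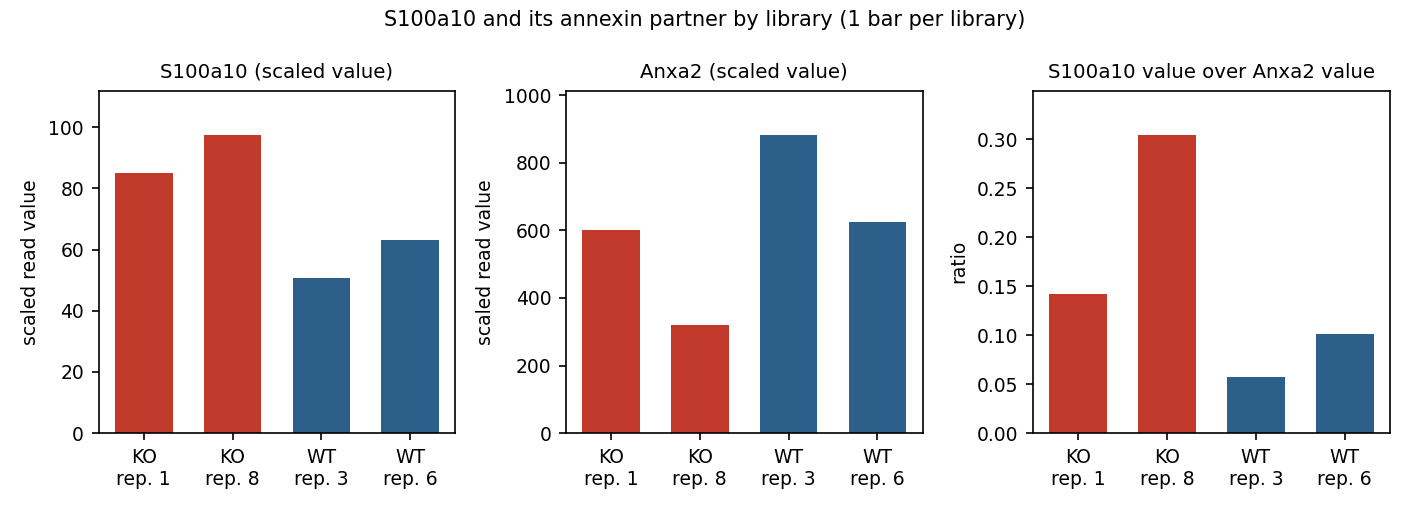
Scaled read value of S100a10 (left) and Anxa2 (middle) and the ratio of the values (right) on y axes from 0, with 1 bar per library, KO replicates 1 and 8 left of WT replicates 3 and 6. S100a10 is above WT and Anxa2 below WT in both KO libraries, and the ratio is 0.142 and 0.304 in KO and 0.0576 and 0.101 in WT.

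S100a11 (ENSMUSG00000027907), a partner of annexin A1 in keratinocytes, was the most abundant member per length in each library but KO replicate 8, where S100a9 was above it. It had 245 and 109 in KO replicates 1 and 8 and 375 and 220 in WT replicates 3 and 6. The groups overlapped, since KO replicate 1 was above WT replicate 6, and KO replicate 8 was the lowest. The log2 fold change of S100a11 was −0.81 (SE 0.55, 95% interval −2.10 to 0.47, limma adjusted p = 0.951), with −0.23 without KO replicate 8 and −1.39 without KO replicate 1. Anxa1 overlapped as well, with 628 and 344 in KO tumours and 498 and 756 in WT tumours. The S100a11 value was 0.389 and 0.316 of the Anxa1 value in KO tumours and 0.753 and 0.291 in WT tumours. This ratio, uncorrected for length, also overlapped.

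Suprabasal keratinocyte markers, mainly Krt4 and Krt13 by value, were set beside S100a11 and S100a16. Their 7 genes summed to 2573 and 143 in KO replicates 1 and 8 and 11901 and 3204 in WT replicates 3 and 6, and Krt1 was at 0 in KO replicate 8. Of the 7, 6 had negative log2 fold changes, 5 of them without overlap, against 19.3% of all genes tested, and 0 passed. Ivl, the involucrin gene, named after its values were seen, went the other way, with 4.40 and 5.67 in KO tumours and 1.93 and 2.54 in WT tumours. The 7 basal markers summed to 18777 and 4520 in KO tumours and 22279 and 20655 in WT tumours, with none at 0 and 5 of 7 log2 fold changes negative. Krt5 and Krt14 made up most of these sums. Of the 7 genes 1 lay above and 1 below WT without overlap, against 14.5% and 19.3% of all genes tested. Krt14 was the lower one, and Itga6, an integrin subunit gene, was the higher one, with 263 and 282 in KO tumours and 150 and 152 in WT tumours. The 7 general epithelial markers summed to 4972 and 2451 in KO tumours and 4866 and 3739 in WT tumours. Again none was at 0, and 5 had negative log2 fold changes. Dsp, named after its values were seen, made up most of these sums. It had 4239 and 2110 in KO tumours and 3587 and 2790 in WT tumours. Jup, Perp and Krt8 lay below WT without overlap, 3 of the 7 against 19.3% of all genes tested, and 0 lay above. The S100a16 value was 0.212 and 0.165 of the Trp63 value in KO tumours and 0.308 and 0.183 in WT tumours. It was 0.783 and 0.865 of the Cdh1 value in KO tumours and 0.716 and 1.29 in WT tumours. Both ratios, uncorrected for length, overlapped between KO and WT. Trp63 and Cdh1 were picked after their values were seen, and the outcome depends on the marker chosen. Itga6 was above WT in both KO tumours while S100a16 was below WT, so the ratio of S100a16 to Itga6 does not overlap. The part of these cell types in the S100a11 and S100a16 values was not tested.

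S100a6 (ENSMUSG00000001025), calcyclin, had 195 and 277 in KO tumours and 203 and 263 in WT tumours, each from at least 828 reads. The KO values lay outside the WT values on either side, and the means were 236 ± 58.1 in KO tumours and 233 ± 42.3 in WT tumours (SD, n = 2 each). The log2 fold change was 0.01 (SE 0.44, 95% interval −1.02 to 1.04, limma adjusted p = 0.998).

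S100a8 and S100a9 encode the subunits of calprotectin, which neutrophils store and inflamed keratinocytes also make. S100a8 (ENSMUSG00000056054) had 59.8 and 103 in KO tumours and 76.6 and 110 in WT tumours, and S100a9 (ENSMUSG00000056071) had 61.1 and 152 in KO tumours and 193 and 82.6 in WT tumours. Both genes overlapped between the groups. The log2 fold change was −0.23 (SE 0.47, 95% interval −1.32 to 0.87) for S100a8 and −0.39 (SE 0.61, 95% interval −1.83 to 1.06) for S100a9, with limma adjusted p = 0.998 and 0.997. The S100a9 value was 1.02 and 1.47 times the S100a8 value in KO replicates 1 and 8, and 2.52 and 0.749 times in WT replicates 3 and 6. The spread between the WT libraries in this ratio was thus wider than that between the KO libraries.

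Neutrophil markers were low. Of 10 markers 8 had a row, and their summed value was 11.4 and 68.3 in KO replicates 1 and 8 and 44.0 and 14.3 in WT replicates 3 and 6. Ngp, Cxcr2, Mmp8 and Stfa2l1 were at 0 in KO replicate 1, Ngp was at 0 in WT replicate 3 and Stfa2l1 in WT replicate 6. Of the 5 that could be tested, 2 had positive and 3 negative log2 fold changes, and 0 passed. Il1r2, a decoy receptor gene named after its values were seen, made up most of the sum in WT replicate 3, with 9.24 and 14.4 in KO replicates 1 and 8 and 34.9 and 5.40 in WT replicates 3 and 6. Csf3r, Retnlg, Ngp, Cxcr2, Mmp8 and Stfa2l1 were highest in KO replicate 8, unlike S100a9. Ltf and Il1r2 were highest in WT replicate 3, as S100a9 was. Between the WT libraries the markers differed in direction. Csf3r, Retnlg and Ngp were lower in WT replicate 3 than in WT replicate 6. Ltf, Cxcr2, Mmp8, Stfa2l1 and Il1r2 were higher there. Some of these contrasts rest on few reads in WT replicates 3 and 6: 0 and 1 for Ngp, 4 and 1 for Mmp8, 1 and 0 for Stfa2l1. Ltf had 1.32 and 1.03 in KO replicates 1 and 8 and 2.70 and 1.91 in WT replicates 3 and 6. Their part in the S100a9 values was not tested.

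To compare levels between genes, values were divided by exon length from GENCODE, in units of scaled value per kb. In KO tumours the means (± SD, n = 2) came in the order S100a11 (346 ± 188), S100a9 (204 ± 122), S100a6 (173 ± 42.5), S100a8 (117 ± 43.8), S100a10 (75.2 ± 7.30), S100a16 (28.3 ± 5.25), S100a4 (12.2 ± 3.95), S100a13 (6.60 ± 0.670), S100a1 (5.98 ± 0.0560) and S100a14 (0.0747 ± 0.106). In WT tumours the order was S100a11 (583 ± 215), S100a9 (264 ± 150), S100a6 (171 ± 30.9), S100a8 (135 ± 34.3), S100a14 (57.8 ± 8.55), S100a10 (47.0 ± 7.27), S100a16 (45.5 ± 0.998), S100a13 (7.96 ± 0.577), S100a4 (4.33 ± 2.28) and S100a1 (3.27 ± 0.0937). Neighbours in this order whose library values overlapped, so that their order is within the spread, were S100a9 with S100a6 and S100a6 with S100a8 in both genotypes. In KO tumours S100a11 also overlapped S100a9. In WT tumours S100a14 overlapped S100a10, S100a10 overlapped S100a16, and S100a4 overlapped S100a1. S100a14 was thus a middling member of the cluster in WT tumours, at 3.41% and 5.72% of the summed value per kb of the 10 genes in WT replicates 3 and 6.

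The summed value per kb of the 9 other members was 949 and 986 in KO replicates 1 and 8 and 1468 and 1052 in WT replicates 3 and 6. Both KO sums were below both WT sums, and the gap between the WT libraries was wider than that between KO replicate 8 and WT replicate 6. S100a10 took 7.38% and 8.15% of the member sum in KO tumours and 2.76% and 4.67% in WT tumours. S100a11 took 50.4% and 21.6% in KO tumours and 48.3% and 38.6% in WT tumours.

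**Figure D4:**
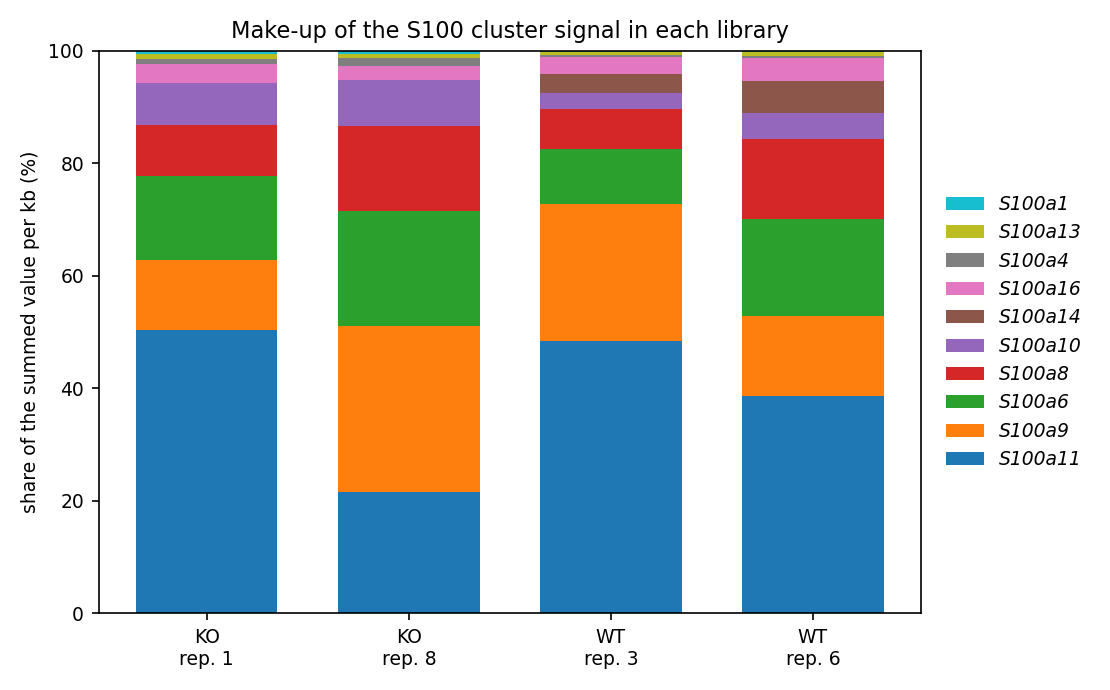
Share (%) of each S100 cluster gene in the summed value per kb of the 10 genes (y axis, stacked bars), with KO replicates 1 and 8 left of WT replicates 3 and 6. S100a11 is the largest share in KO replicate 1 and both WT libraries, and S100a9, at 29.4%, is the largest in KO replicate 8, where S100a11 is at 21.6%.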

How the data were processed

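Total RNA was extracted with Trizol and made into TruSeq libraries, per the labels' protocols. The deposited columns hold read signal scaled per library by the authors: every value was a whole multiple of 1 step per column, so whole read counts came back for 100% of values. The submitters' processing notes name DESeq (no version) and mm9, while aligner and counter are not given there. The deposited log2 fold change, mean log2 CPM, p-value and adjusted p-value columns are the authors', per the file headers, and no test is named there.

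Values were tested as log2(value + 1), which understates changes of low genes, for the 12304 genes with at least 1 in at least 2 libraries. Limma 3.58.1 (R 4.3.3, trended prior, two-sided) had genotype as its 1 term, with p-values adjusted across the whole table (Benjamini-Hochberg, cut at 0.05). A permutation of 2 against 2 cannot go below p = 0.333, so none was run. Alternatives included edgeR 4.0.16 and DESeq2 1.42.0 on the recovered reads. The fits were also run on simulated data, with the same spread setting for every gene. That run does not show how often real changes are missed here. Exon lengths came from GENCODE M21 (GRCm38) by Ensembl ID. Named were all members, the flanking genes, up to 3 genes of smallest p per other list, partners and markers at 0. Krt5, Krt13, Dsp, Trp63, Cdh1, Ivl, Il1r2 and Tchh were added after their values were seen. The members and lists were chosen with earlier results of these data known.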

Additional observations from a re-analysis of the deposited data

How the results depend on the processing

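No paired analysis was possible because the replicate numbers of the KO and WT tumours are not shared. S100a14 kept its direction in the 14 alternatives run, but its call was lost with a pseudocount of 0.1 (−9.04, adjusted p = 0.0541) and in edgeR's quasi-likelihood test (−9.34, adjusted p = 0.0847), where 0 members passed. Leaving out 1 library gave −6.65 to −6.32 and 0 to 1 members called. Of the other 9 members, 0 passed in any of the 14 alternatives. In the fits of all 4 libraries, their number at an unadjusted p under 0.05 was 0 in limma and 0 by DESeq2. It was 1 by the exact test of edgeR, where 267 genes were higher and 356 lower of 10332 tested. The smallest adjusted p among them was 0.194, for S100a11 without KO replicate 1.

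The sign turned for 3 members. S100a6 was −0.24 without KO replicate 8, −0.18 without WT replicate 3 and −0.22 in edgeR's exact test without KO replicate 8. S100a8 was 0.16 without KO replicate 1 and 0.03 without WT replicate 6, within −0.61 to 0.16 over the libraries left out. S100a9 was 0.26 without KO replicate 1 and 0.22 without WT replicate 3, within −1.04 to 0.26. The cause was not tested.

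Over all genes, limma called 0 higher and 1 lower (201 and 445 at an unadjusted p under 0.05). The lower count was 2 with no filter, 0 with a pseudocount of 0.1 and 0 in edgeR's quasi-likelihood test (296 unadjusted). edgeR's exact test called 14 higher and 32 lower, DESeq2 20 and 32, and the exact test without KO replicate 8, added after seeing the data, 32 and 25. Leaving out 1 library gave 0 to 203 higher and 0 to 307 lower, the highest of both without KO replicate 1; a group's lone library is then assumed to vary like the other group. S100a1, S100a13 and S100a4 rest on 5 to 34 reads per library.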

Other observations

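The fused-type S100 genes, which carry an S100 domain at the start of a long repeat protein of the cornified layer, share the chromosome 3 region. Of 7 on the list 4 had a row, and 0 of 4 passed limma's threshold, with 1 positive and 3 negative log2 fold changes. Flg, the filaggrin gene, had 4.18 and 1.55 in KO tumours and 54.4 and 11.1 in WT tumours (log2 fold change −2.84, limma adjusted p = 0.910). Hrnr, the hornerin gene, had 1.98 and 1.03 in KO tumours and 7.72 and 0.635 in WT tumours, which overlap. Rptn, the repetin gene, had 48.6 and 1.29 in KO tumours and 70.8 and 19.1 in WT tumours, which overlap as well. Tchh, the positive one, was named after its values were seen. It had 137 and 126 in KO tumours and 145 and 117 in WT tumours, which overlap (log2 fold change 0.01). Among the other S100 genes, S100a7a alone of 8 had a row, with 1.98 and 0.258 in KO tumours and 1.93 and 4.13 in WT tumours.

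Genes of S100 partners and receptors were listed in the same way. All 13 had a row, 12 passed the filter, and 0 passed limma's threshold, with 5 positive and 7 negative log2 fold changes. Cd36, a scavenger receptor, had 11 and 7 reads in KO tumours and 0 in both WT tumours (limma adjusted p = 0.910). Trp53, the gene of the p53 protein, had 6.16 and 14.7 in KO tumours and 54.2 and 50.5 in WT tumours (log2 fold change −2.33, limma adjusted p = 0.836). Anxa6, a membrane-binding annexin, had 8.58 and 31.2 in KO tumours and 5.02 and 5.40 in WT tumours (limma adjusted p = 0.926).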
